A study of Mus musculus with 42 samples.

Results

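The effect of diet on the liver transcriptome at ZT 0 was described from 6 libraries of the 42 in the series, 3 of mice fed AIN93G and 3 of mice fed the HFD. Libraries were assigned by their labelled diet and time point, and no measured value entered the choice. ZT 0 is the moment of lights on, at the end of the dark phase. All animals were female C57BL/6NHsd mice that were started on the diets at 3 weeks of age and fed for 3 weeks. AIN93G, the control diet, supplied 16% of energy from soybean oil, and the HFD supplied 45% of energy from soybean oil. The HFD also supplied less of its energy from carbohydrate and held less corn starch. Effects of more fat and of less carbohydrate therefore cannot be told apart. Each library was 1 mouse, and the labels name no pooling, genetic change, or drug. Mice are numbered 1 to 3 within a diet in the order of their records, so a number names a mouse and pairs none. Poly(A) RNA of whole liver was sequenced, so fewer cells of a type and less RNA per cell cannot be told apart.

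In liver, carbohydrate that is eaten in excess of need is turned into fatty acids by de novo lipogenesis. Acetyl-CoA carboxylase and fatty acid synthase build palmitate, Elovl6 extends it, and Scd1 adds a double bond. The transcription factors SREBP-1c and ChREBP drive this program after a meal, and polyunsaturated fatty acids, which soybean oil is rich in, are known to lower it. PPARα, a receptor activated by fatty acids, drives the opposite program of fat oxidation.

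The 6 libraries held between 15123633 and 17975846 counts. Levels are given in CPM, counts scaled to a common library size with TMM factors, and pairs of libraries had Pearson correlations of 0.979 to 0.990 across genes. No pair of libraries agreed within sampling noise, so each was counted as 1 sample. The 15 hepatocyte markers were abundant in every library and summed to 141757 to 154897 CPM on AIN93G and 137144 to 153815 CPM on the HFD. Of 10 adipocyte markers, Adipoq, Lep, Retn, Plin1, and Slc7a10 had at most 5 counts in any library and Cfd at most 11, Fabp4 and Lipe had 106 to 181, and Car3 and Pck1, which liver also expresses, had 12599 to 64399. Mitochondrially encoded genes held 3.88% to 4.13% of counts on AIN93G and 3.59% to 3.64% on the HFD. HFD mouse 1 stood apart in several gene groups, and several lists moved with single mice, which is given beside them.

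Of 13394 genes tested, 14 had an adjusted p under 0.05 by the quasi-likelihood test of edgeR with Benjamini-Hochberg adjustment (0.105%). On the HFD 6 genes rose (0.0448%) and 8 fell (0.0597%). The genes that fell were the fatty acid enzymes Scd1, Elovl6, Acaca, and Me1, Serpina12, which encodes the serpin vaspin, and Hcn3, Fam198a, and Sult3a1. At an unadjusted p under 0.05 there were 1020 genes (7.62%), of which 571 were higher (4.26%) and 449 lower (3.35%). For 1735 genes (13%) all HFD mice lay on 1 side of all AIN93G mice, 871 of them higher on the HFD (6.50%) and 864 lower (6.45%). The median log2 fold change over all genes was 0.00. The number of genes past the threshold ranged from 1 without AIN93G mouse 2 to 35 without HFD mouse 1. DESeq2 gave 106 genes, which included all 14, limma-voom gave 1 (Serpina12), and one fit of all 42 libraries with edgeR gave 0, with 175 genes at an unadjusted p under 0.05.

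**Figure D1:**
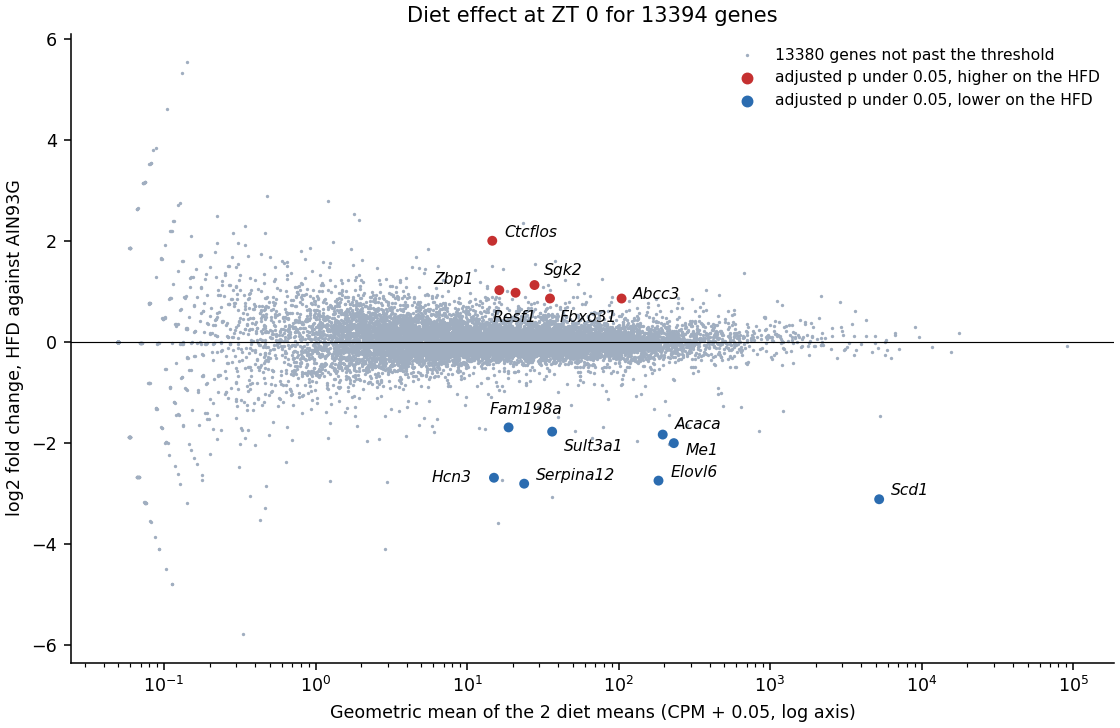
Log2 fold change of the HFD against AIN93G at ZT 0 (vertical axis) against the geometric mean of the 2 diet means in CPM (log axis), 1 point per gene. The 6 genes higher on the HFD lie between 0.85 and 2.0, and the 8 lower genes between -3.12 and -1.70, with Scd1 the most abundant of the 14.

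Scd1, which encodes stearoyl-CoA desaturase, was among the most abundant transcripts of the liver on AIN93G (ENSMUSG00000037071, mm10 chromosome 19, 44394451 to 44407709). Its level was 21501, 10208, and 14704 CPM in the AIN93G mice and 2112, 941, and 2284 CPM in the HFD mice. The lowest AIN93G mouse was thus far above the highest HFD mouse, and the fitted level was 8.7-fold lower on the HFD (log2 fold change -3.12, SE 0.38, adjusted p = 0.0238). Per kilobase of transcript, the mean level of Scd1 was 3199 CPM on AIN93G and 368 CPM on the HFD, rank 16 and rank 115 among the genes tested.

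Elovl6, the elongase that makes stearate from palmitate, fell by 2.75 on the log2 scale (SE 0.39, adjusted p = 0.0495). It was present at 723, 323, and 382 CPM on AIN93G and 111, 54.8, and 46 CPM on the HFD (ENSMUSG00000041220, chromosome 3, 129532355 to 129638495). Acaca encodes the acetyl-CoA carboxylase that commits carbon to fatty acids (ENSMUSG00000020532, chromosome 11, 84129672 to 84401651). Its level was 468, 359, and 283 CPM on AIN93G and 141, 74.7, and 94.9 CPM on the HFD (log2 fold change -1.84, SE 0.25, adjusted p = 0.0419). Me1, cytosolic malic enzyme, supplies NADPH for the pathway (ENSMUSG00000032418, chromosome 9, 86581371 to 86695953). It was present at 642, 406, and 346 CPM on AIN93G and 133, 100.4, and 113 CPM on the HFD, a fall of 2.01 on the log2 scale (SE 0.23, adjusted p = 0.0214). For all 3 genes every HFD mouse was below every AIN93G mouse, and AIN93G mouse 1 had the highest value of the 6.

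Of the 21 lipogenesis genes, 4 fell past the threshold and 14 were lower at an unadjusted p under 0.05, with none higher. The diets did not overlap for 11 of them, all lower on the HFD, and the median log2 fold change was -1.33. Of all genes tested, 0.0597% fell past the threshold, and 3.35% were lower and 4.26% higher at an unadjusted p under 0.05. Without overlap, 6.45% of all genes lay lower and 6.50% higher. These shares stand beside the counts of the lists below, taken with all 6 mice. Pnpla3, a lipid droplet protein and target of both lipogenic factors, had 88.9, 30.1, and 45.3 CPM on AIN93G and 8.98, 0.55, and 4.2 CPM on the HFD, with HFD mouse 2 nearly devoid of it (log2 fold change -3.59, SE 0.66, adjusted p = 0.158). G6pdx, which opens the pentose phosphate pathway, differed by -1.71 on the log2 scale (SE 0.33, adjusted p = 0.175). Fasn, fatty acid synthase, had 2245, 1131, and 1292 CPM on AIN93G and 779.6, 275, and 307 CPM on the HFD. The diets did not overlap for Fasn, but HFD mouse 1 was closer to AIN93G than the others, and the change missed the threshold (log2 fold change -1.78, SE 0.41, adjusted p = 0.291). The enzymes of triacylglycerol assembly Dgat1, Dgat2, and Agpat2, chosen after their values had been seen, had log2 fold changes of 0.02 (SE 0.12), -0.13 (SE 0.13), and -0.07 (SE 0.13). Summed over the list, the level was 15279 to 30587 CPM on AIN93G and 3164 to 6022 CPM on the HFD. Scd1 alone made up 10208 to 21501 CPM on AIN93G and 941 to 2284 CPM on the HFD, so the sum mostly followed Scd1 on AIN93G. DESeq2 called 7 of the 21, and the fit without HFD mouse 1 called 8, Fasn among them. Leaving out any other mouse left at most 1 call, with 11 to 15 genes lower at an unadjusted p under 0.05.

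**Figure D2:**
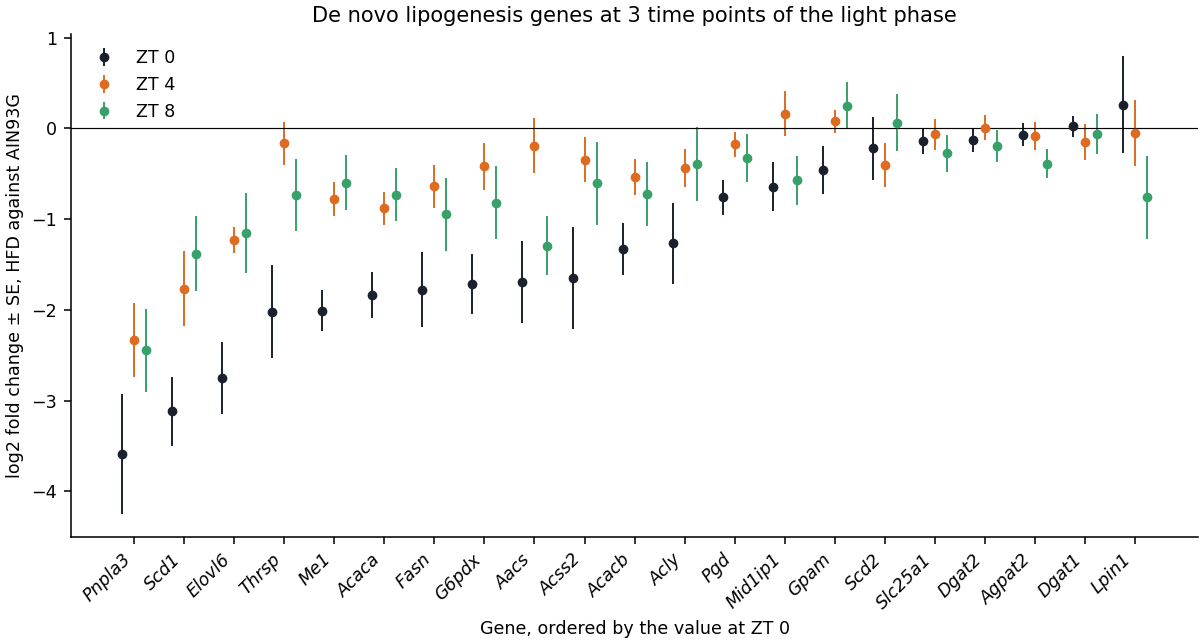
Log2 fold change of the HFD against AIN93G with its SE for the 21 lipogenesis genes at ZT 0, ZT 4, and ZT 8, with 3 mice per diet and time point. The value at ZT 0 is the lowest of the 3 times for 15 of the 21 genes, from Pnpla3 (-3.59) to Gpam (-0.46) at the left.

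The regulators of lipogenesis had no call, and every HFD mouse was above every AIN93G mouse for 3 of the 16. Srebf1, which encodes SREBP-1, had 384, 238, and 405 CPM on AIN93G and 358, 205, and 246 CPM on the HFD, and the diets overlapped (log2 fold change -0.35, SE 0.24, adjusted p = 0.753). Of the 16 regulators, 2 were higher at an unadjusted p under 0.05 (median -0.02), beside 4.26% of all genes. Srebf2, the regulator of cholesterol synthesis, was 1 of the 2 (log2 fold change 0.32, SE 0.12, adjusted p = 0.607). With 1 mouse left out, the number higher was 0 (without AIN93G mouse 2) to 3 (without HFD mouse 3), and 2 were lower without HFD mouse 1. The desaturases of polyunsaturated fatty acid synthesis did not pass the threshold, with log2 fold changes of 0.08 (SE 0.21) for Fads1 and 0.29 (SE 0.19) for Fads2. In their list of 14 genes the median was 0.04, and 1 gene was higher at an unadjusted p under 0.05. Without AIN93G mouse 1 the median of this list was 0.10, with 2 higher, and without AIN93G mouse 2 it was -0.05, with 0 higher. In the list of 22 genes of sterol synthesis and uptake, the median was -0.10. At an unadjusted p under 0.05, 1 gene was higher and 1 lower, beside 4.26% and 3.35% of all genes. Hsd17b7, an enzyme of cholesterol synthesis, was the higher one (log2 fold change 0.36, SE 0.14, adjusted p = 0.625). The sterol list rested on single mice. Without HFD mouse 1 its median was -0.44, with 10 genes lower at an unadjusted p under 0.05 and the prenyl synthase Fdps past the threshold, and without HFD mouse 2 or AIN93G mouse 1 its median was 0.07 or 0.06.

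Serpina12 had the lowest adjusted p of all genes (0.00313). It encodes vaspin, a serine protease inhibitor known mainly from adipose tissue (ENSMUSG00000041567, chromosome 12, 104028769 to 104044443). Its level was 49.9, 79.1, and 59.7 CPM in the AIN93G mice and 11.4, 7.94, and 7.56 CPM in the HFD mice. All 3 HFD mice were low and close together, and the fitted level was 7.02-fold lower (log2 fold change -2.81, SE 0.21). Serpina12 was past the threshold in 12 of 14 alternative fits, more than any other gene. Among the 17 genes of the serpina cluster that were tested, it alone passed. The median of the cluster was -0.04 (0.07 without AIN93G mouse 3 and -0.10 without AIN93G mouse 2). In the same libraries Adipoq had at most 5 counts and Lep at most 2, and the other adipocyte markers are given above.

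The bases before the starts of Serpina12 and Fasn are shown because the former carried the firmest change and the latter encodes the central enzyme of lipogenesis. Both runs cover 150 bases up to the start in the RefSeq annotation of GRCm38.p6, on the minus strand, chr12:104044444-104044593 for Serpina12 and chr11:120824548-120824697 for Fasn. Capitals mark matches on either strand to CCAAT (the core of the binding sequence of NF-Y) or GGGCGG (the GC box bound by Sp factors).
Serpina12: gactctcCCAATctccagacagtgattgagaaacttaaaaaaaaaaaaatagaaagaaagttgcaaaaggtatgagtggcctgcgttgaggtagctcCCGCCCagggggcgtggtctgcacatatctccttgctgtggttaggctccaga
Fasn: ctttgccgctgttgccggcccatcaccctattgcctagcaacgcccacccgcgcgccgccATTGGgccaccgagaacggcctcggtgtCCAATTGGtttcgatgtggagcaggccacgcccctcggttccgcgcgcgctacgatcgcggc
Serpina12 had 1 CCAAT and 1 GC box on the opposite strand, and Fasn had 3 CCAAT, 2 of them overlapping in CCAATTGG. Over the 250 bases before the start, CCAAT was found in 9 of 20 promoters of the lipogenesis genes (45%) and in 35% of the 13138 promoters of genes tested. The E-box CACGTG was in 1 of the 20 (5%) against 8.02% of all promoters, and the sterol response element TCACNCCAC was in none against 1.08%. A promoter was at hand for 17 of the 21 genes, and a match is a description of these letters only.

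Among the other genes that fell, Fam198a encodes a kinase-like protein of the Golgi (ENSMUSG00000038233, chromosome 9, 121950988 to 121980209). It had 35.8, 38.7, and 26.8 CPM on AIN93G and 11.6, 8.31, and 11.3 CPM on the HFD (log2 fold change -1.70, SE 0.18, adjusted p = 0.0161). Sult3a1, a sulfotransferase known to be more abundant in female than in male mouse liver, had 66.7, 72.9, and 62.8 CPM on AIN93G and 24.3, 11.4, and 23.2 CPM on the HFD (ENSMUSG00000069668, chromosome 10, 33857721 to 33879532). HFD mouse 2 had the lowest value, and the fall was 1.78 on the log2 scale (SE 0.24, adjusted p = 0.0419). Hcn3, a cation channel of the pacemaker family, had 49.3, 36.6, and 28.1 CPM on AIN93G and 10.1, 3.73, and 3.86 CPM on the HFD (log2 fold change -2.69, SE 0.37, adjusted p = 0.0419). Its gene (ENSMUSG00000028051, chromosome 3, 89146074 to 89160196) shares 711 bases with Pklr on the opposite strand. Pklr encodes liver pyruvate kinase, a classic ChREBP target, and had 664, 477, and 376 CPM on AIN93G and 207, 157, and 117 CPM on the HFD (log2 fold change -1.66, SE 0.25, adjusted p = 0.0672). The strand setting of the counting is not given in the sources used here, so reads of the 2 genes in the shared bases cannot be told apart.

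Of the 6 genes that rose, Ctcflos had the largest change. Ctcflos, a noncoding RNA antisense to the testis gene Ctcfl (ENSMUSG00000087382, chromosome 2, 173110818 to 173133204), had 6.97, 8.18, and 6.77 CPM on AIN93G and 27, 38, and 22.6 CPM on the HFD (log2 fold change 2.0, SE 0.20, adjusted p = 0.0161). It overlaps Ctcfl, so its reads cannot be told apart from those of Ctcfl where they share bases. Sgk2, a kinase related to Akt, had 21.2, 19, and 16.4 CPM on AIN93G and 41.3, 42.4, and 39.4 CPM on the HFD, 2.18-fold higher (ENSMUSG00000017868, chromosome 2, 162987330 to 163014127, SE 0.12 on the log2 scale, adjusted p = 0.0161). The values within each diet lay close together for Sgk2. Zbp1, a sensor of Z-form nucleic acid in innate immunity, had 10.4, 11.6, and 12.3 CPM on AIN93G and 22.7, 24.3, and 22.5 CPM on the HFD (ENSMUSG00000027514, chromosome 2, 173206612 to 173218923, log2 fold change 1.02, SE 0.12, adjusted p = 0.0214). Resf1, a silencing factor of retroelements, had 13.6, 15.7, and 15.3 CPM on AIN93G and 30.9, 27.7, and 28.9 CPM on the HFD (ENSMUSG00000032712, chromosome 6, 149309414 to 149335663, log2 fold change 0.97, SE 0.11, adjusted p = 0.0214).

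Abcc3 encodes MRP3, the basolateral pump that exports conjugated bile acids and glucuronides from hepatocytes to blood (ENSMUSG00000020865, chromosome 11, 94343295 to 94392997). It had 83.5, 78.6, and 71.4 CPM on AIN93G and 134, 142, and 146 CPM on the HFD, 1.81-fold higher (SE 0.11 on the log2 scale, adjusted p = 0.0271). Fbxo31, a substrate receptor of a ubiquitin ligase, had 26.7, 26.9, and 24.9 CPM on AIN93G and 44.9, 54.5, and 42.7 CPM on the HFD (ENSMUSG00000052934, chromosome 8, 121549440 to 121578806, log2 fold change 0.86, SE 0.12, adjusted p = 0.0469). For all 6 genes every HFD mouse was above every AIN93G mouse. All 14 genes kept their direction in each of 14 alternative fits, while the call held in 4 fits for Fbxo31 and Sult3a1 and in 10 for Ctcflos.

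**Figure D3:**
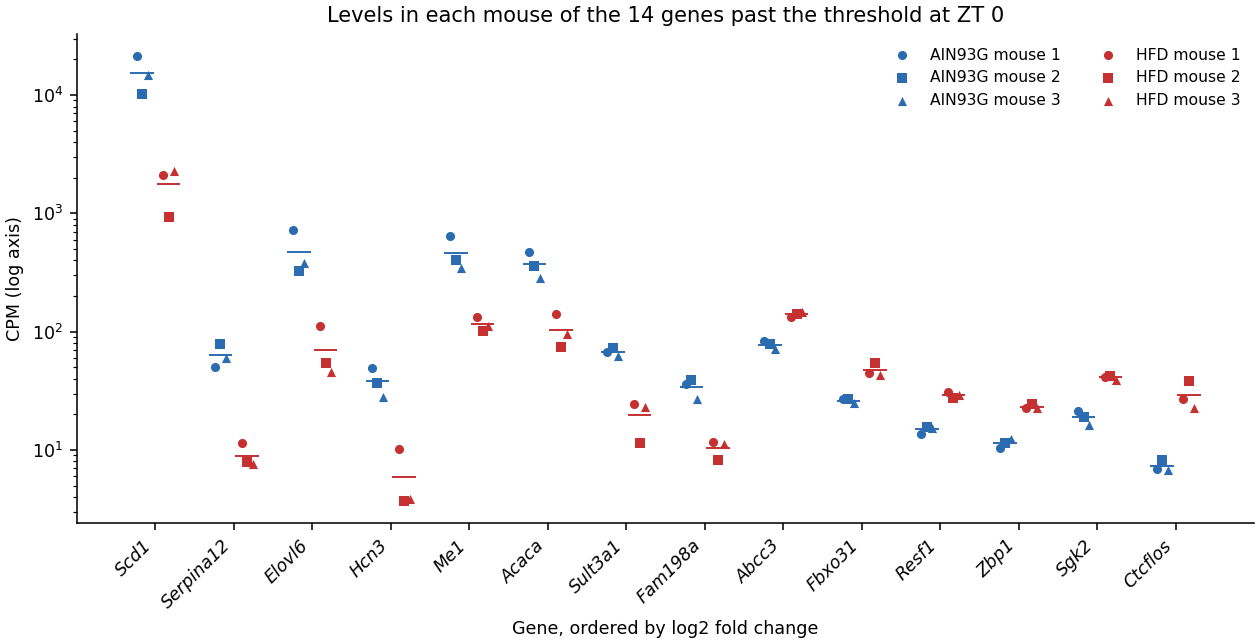
Level in CPM (log axis) of the 14 genes past the threshold in each of the 6 mice at ZT 0, with the mean of each diet as a line. The diets do not overlap for any of the 14 genes, and AIN93G mouse 1 is the highest for Scd1, Elovl6, Hcn3, Me1, and Acaca.

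Genes of fat oxidation mostly had values above 0 without a call by edgeR, while DESeq2 called Cpt1a. Of 41 PPARα targets and genes of fat oxidation, 38 had a log2 fold change above 0 and 9 were higher at an unadjusted p under 0.05, with none lower. For 7 of them every HFD mouse was above every AIN93G mouse, and the median log2 fold change was 0.35. Cpt1a, which admits fatty acids to mitochondria, had 265, 299, and 269 CPM on AIN93G and 349, 573, and 502 CPM on the HFD (log2 fold change 0.77, SE 0.18, adjusted p = 0.291). Log2 fold changes were 0.66 (SE 0.18) for the mitochondrial carrier Ucp2, 1.06 (SE 0.29) for the thioesterase Acot2, 0.50 (SE 0.15) for the peroxisomal thiolase Acaa1a, 0.34 (SE 0.12) for the dehydrogenase Acadm, and 0.35 (SE 0.14) for Cpt2.

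The list differed between the HFD mice. HFD mouse 1 was below the AIN93G mean for 27 of the 41 genes, while HFD mouse 2 was above it for 38 and HFD mouse 3 for 41. Against that mean, log2 values in HFD mice 1, 2, and 3 were -1.16, -0.68, and 0.40 for Fgf21. They were -0.91, -0.77, and 0.40 for Pdk4 and -0.79, -0.46, and 0.14 for Fabp1. Summed over the list, the level was 14003 to 14670 CPM in the AIN93G mice, 11971 CPM in HFD mouse 1, and 20114 and 18762 CPM in HFD mice 2 and 3. Without HFD mouse 1, 31 of the 41 genes were higher at an unadjusted p under 0.05, beside 612 of all genes. Without HFD mouse 2, 4 genes were higher at that level, and the median was 0.19, and without AIN93G mouse 3 there were 5. Without HFD mouse 3, 7 genes of the list were higher and 3 lower at that level. In the fit without HFD mouse 1, Acot1, Cpt1a, Cyp4a10, Cyp4a32, and Vnn1 passed the threshold. HFD mouse 1 also had the highest Kupffer cell markers, with a sum of 1349 CPM, and their part in the result was not tested.

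**Figure D4:**
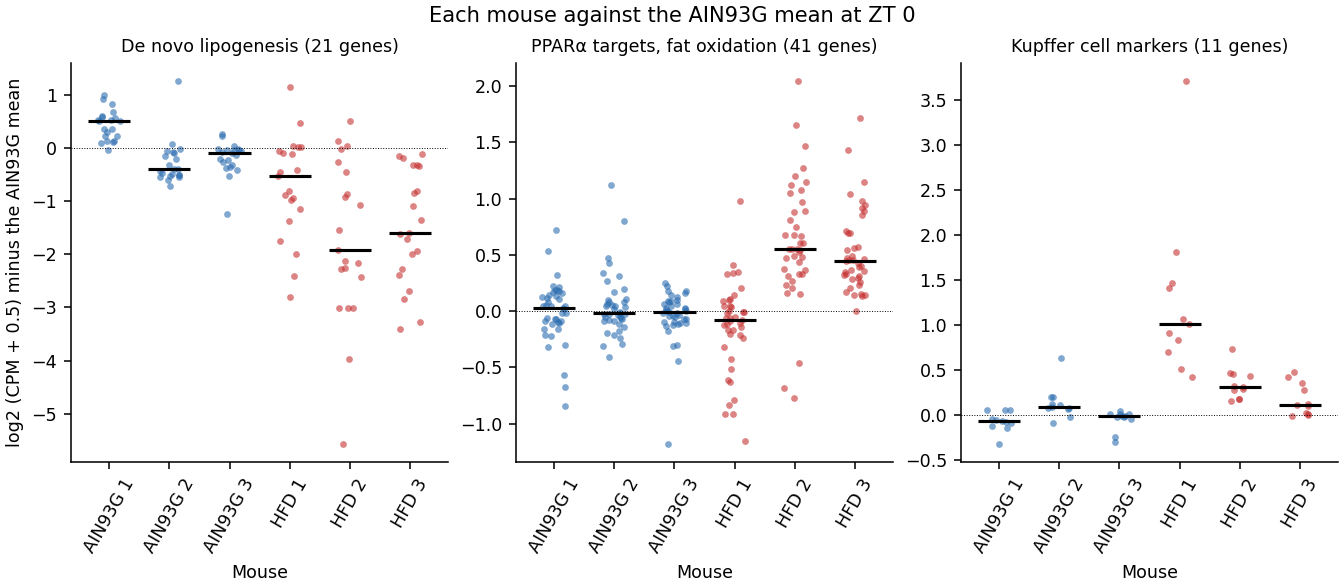
Log2 (CPM + 0.5) of each gene minus its mean over the AIN93G mice, in each mouse at ZT 0, for 3 gene lists, with black lines for the median of a list in a mouse. HFD mouse 1 has the smallest shift of the HFD mice in lipogenesis (median -0.51), no upward shift in fat oxidation (-0.08), and the largest in Kupffer cell markers (1.01).

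Genes of glucose and fructose use had a median below 0 without a call by edgeR. Of 27 genes of glycolysis, fructose, and glycogen metabolism, none passed the threshold, 8 were lower at an unadjusted p under 0.05, and 1 was higher. For 9 of the 27 every HFD mouse was below every AIN93G mouse, and the median was -0.27. Pklr had the largest difference, as given above. Khk, ketohexokinase, the entry enzyme of fructose, had 717, 639, and 518 CPM on AIN93G and 419.7, 298, and 281 CPM on the HFD (log2 fold change -0.91, SE 0.19, adjusted p = 0.201). Log2 fold changes were -0.87 (SE 0.20) for phosphoglucose isomerase (Gpi1), -0.75 (SE 0.15) for the glycogen branching enzyme Gbe1, -0.51 (SE 0.14) for liver glycogen phosphorylase (Pygl), and -0.34 (SE 0.14) for Ppp1r3c, which targets a phosphatase to glycogen. DESeq2 called 5 of the 27, namely Gbe1, Gpi1, Khk, Pklr, and Pygl, and the fit without HFD mouse 1 called Khk and Pklr, with 11 lower at an unadjusted p under 0.05. Leaving out any other mouse left no call, with 10 lower without AIN93G mouse 3 and 6 without each of the other 4, and the median was -0.17 without AIN93G mouse 1.

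Among 20 genes of gluconeogenesis and insulin sensing, none passed the threshold and 2 were higher at an unadjusted p under 0.05 (median 0.24). The number higher was 5 without AIN93G mouse 2 or HFD mouse 3, 1 without AIN93G mouse 1, and 0 without AIN93G mouse 3 (median 0.11), and the median was 0.14 without HFD mouse 1. Pck1, the rate-setting enzyme of gluconeogenesis, had 1775, 3449, and 1419 CPM on AIN93G and 4019.6, 3933, and 3556 CPM on the HFD, and AIN93G mouse 2 was close to the HFD mice (log2 fold change 0.79, SE 0.29, adjusted p = 0.588). Of 37 genes of the urea cycle and amino acid catabolism, 33 were above 0 and 6 were higher at an unadjusted p under 0.05, with a median of 0.18 and no call by edgeR. DESeq2 called Agxt. The count of 6 rested on single mice, with 1 without AIN93G mouse 2, 2 without HFD mouse 1 (median 0.11), 3 without AIN93G mouse 3, and 17 without HFD mouse 3 (median 0.32). In the fit without HFD mouse 3, 834 of all genes were higher at that level, beside 571 with all 6 mice. HFD mouse 3 was below the AIN93G mean for 24 of the 37 genes. Agxt, which detoxifies glyoxylate, had a log2 fold change of 0.60 (SE 0.16), and Cbs, of the route from methionine to cysteine, of 0.29 (SE 0.12).

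Lipid handling showed single genes in both directions and no call. Of 25 genes of lipid droplets and lipid uptake, 4 were higher and 1 lower at an unadjusted p under 0.05 (median 0.13), with 2 to 6 higher when 1 mouse was left out and a median of 0.28 without AIN93G mouse 1 and 0.05 without HFD mouse 3. Fabp5, a fatty acid binding protein, had 292, 220.0, and 271 CPM on AIN93G and 19.5, 72.7, and 109 CPM on the HFD, with HFD mouse 1 the lowest (log2 fold change -1.96, SE 0.47, adjusted p = 0.337). Without HFD mouse 1, Fabp5 passed the threshold. The droplet protein Plin5 and the lipases Pnpla2 and Lipe had log2 fold changes of 0.50 (SE 0.14), 0.31 (SE 0.13), and 0.42 (SE 0.17). Of 22 genes of lipoprotein assembly (median -0.05), 1 was higher and 3 lower at an unadjusted p under 0.05, beside 4.26% and 3.35% of all genes. In this list 0 were lower without AIN93G mouse 1, AIN93G mouse 3, or HFD mouse 3. Without AIN93G mouse 1 its median was 0.06, with 14 genes above 0. The HDL receptor Scarb1 had a log2 fold change of 0.39 (SE 0.14), Apoa4 of -0.51 (SE 0.20), and Apom of -0.30 (SE 0.12).

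Of 26 genes of bile acid synthesis and transport, 3 were higher and 1 lower at an unadjusted p under 0.05 (median 0.10). The shares of all genes were 4.26% higher and 3.35% lower. In the bile acid list, the number higher was 7 without HFD mouse 1 and 1 without AIN93G mouse 3 or HFD mouse 2. Its median was 0.02 without HFD mouse 2, 0.06 without AIN93G mouse 3, and 0.17 without HFD mouse 3. Abcb4, the canalicular pump for phosphatidylcholine, had 267, 349, and 292 CPM on AIN93G and 357, 595, and 459 CPM on the HFD (log2 fold change 0.64, SE 0.19, adjusted p = 0.493). The sterol exporter Abcg5 had a log2 fold change of 0.32 (SE 0.12), the peroxisomal oxidase Acox2 of 0.34 (SE 0.11), and Slc10a1, the sodium-dependent importer of bile acids, of -0.33 (SE 0.15).

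Cytochrome P450 genes were split. Of 39 tested in families 1 to 3, 5 were higher and 8 lower at an unadjusted p under 0.05, with a median of 0.08 and no call by edgeR. DESeq2 called Cyp2c54 higher and Cyp3a41a and Cyp3a44 lower. With 1 mouse left out, the number higher was 2 (without AIN93G mouse 2, AIN93G mouse 3, or HFD mouse 2) to 8 (without HFD mouse 1) and the number lower 6 to 10, with medians of -0.03 to 0.14. Cyp3a41a, Cyp3a44, and Cyp3a16 are closely similar genes on chromosome 5, of which Cyp3a41a and Cyp3a44 are known as female-predominant forms. Cyp3a41a had 186, 139, and 60.4 CPM on AIN93G and 27, 34.4, and 41.6 CPM on the HFD (log2 fold change -1.90, SE 0.35, adjusted p = 0.158). Cyp3a44 had 508, 373, and 189 CPM on AIN93G and 143, 119.6, and 128 CPM on the HFD (log2 fold change -1.45, SE 0.29, adjusted p = 0.201). Cyp3a16 had 192, 105, and 19.9 CPM on AIN93G and 15.9, 6.96, and 14.8 CPM on the HFD (log2 fold change -3.07, SE 0.67, adjusted p = 0.261). AIN93G mouse 3 was the lowest AIN93G mouse for all 3, and without it these genes and Cyp3a41b passed the threshold. Reads may be divided between such copies in counting, so their single values are uncertain. Cyp2c54 had a log2 fold change of 0.76 (SE 0.21), Cyp2c70 of -0.45 (SE 0.14), and Cyp2d40 of -0.58 (SE 0.17).

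Acute phase genes, which hepatocytes secrete under the control of interleukin 6, had a median above 0 without a call by edgeR. Of 28 tested, 19 were above 0, 8 were higher and 2 lower at an unadjusted p under 0.05, the diets did not overlap for 9 of them, and the median was 0.23. Summed over the list, the diets overlapped, with 36293 to 45982 CPM on AIN93G and 35557 to 44522 CPM on the HFD. DESeq2 called Saa4, Saa1, Lbp, and Hp higher and Hamp lower. Leaving out 1 mouse gave 5 to 7 higher, 1 to 4 lower, and a median from 0.14 (without HFD mouse 1) to 0.31 (without AIN93G mouse 2), and Saa1 passed the threshold without HFD mouse 2. Saa4, serum amyloid A4, had 134, 119.6, and 114 CPM on AIN93G and 214, 191, and 189.7 CPM on the HFD (log2 fold change 0.70, SE 0.11, adjusted p = 0.103). Saa1 had 20.7, 20.7, and 23.5 CPM on AIN93G and 57, 30.9, and 50.1 CPM on the HFD (log2 fold change 1.09, SE 0.20, adjusted p = 0.16). Saa1 has a close copy in Saa2, so its reads may be divided. The endotoxin binding protein Lbp had a log2 fold change of 0.63 (SE 0.12), haptoglobin (Hp) of 0.46 (SE 0.14), and hemopexin (Hpx) of 0.35 (SE 0.13). Hamp, which encodes the iron hormone hepcidin, went the other way with 739.6, 669, and 539 CPM on AIN93G and 210.0, 382, and 354 CPM on the HFD (log2 fold change -1.04, SE 0.22, adjusted p = 0.235).

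Kupffer cell markers, the genes of the resident macrophages of liver, had values above 0 in the same comparison. All 11 had a log2 fold change above 0 and 9 had an unadjusted p under 0.05, with a median of 0.58 and none past the threshold. Their sum was 596 to 675 CPM in the AIN93G mice and 1349, 794, and 716 CPM in HFD mice 1 to 3, and none of the 11 was at 0. The scavenger receptor Marco had 7.73, 15.5, and 7.83 CPM on AIN93G and 134, 11.1, and 12.7 CPM on the HFD, so that HFD mouse 1 stood far above all others. Cd5l had 124, 138, and 131 CPM on AIN93G and 362, 163, and 183 CPM on the HFD, and Adgre1, which encodes F4/80, had 22.1, 28.1, and 23.7 and 87.3, 33.8, and 29.6 CPM. Clec4f, a lectin known from Kupffer cells, had 174, 207, and 192 CPM on AIN93G and 255, 232, and 206 CPM on the HFD, and the diets overlapped by a narrow margin (log2 fold change 0.28, SE 0.12, adjusted p = 0.652). Without HFD mouse 1, the median of the 11 was 0.23 and all remained above 0, while 2 of them had an unadjusted p under 0.05. That number was also 2 without AIN93G mouse 1, 4 without AIN93G mouse 3, and 11 without HFD mouse 3 (834 of all genes).

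Of 28 interferon-stimulated genes, 25 were above 0 and 3 were higher at an unadjusted p under 0.05 (median 0.28), but the diets overlapped for every one. HFD mouse 1 was above the AIN93G mean for 27 of the 28 genes, while HFD mouse 3 was above it for 6. Without HFD mouse 1 the median was 0.04, with 15 above 0. The number higher at an unadjusted p under 0.05 was 13 without HFD mouse 3 (834 of all genes), 6 without AIN93G mouse 2, 1 without HFD mouse 1, and 0 without any of the other 3 mice. The part of the Kupffer cell markers in the acute phase, interferon-stimulated, and Zbp1 results was not tested. Markers of other cell types had medians of -0.07 for 10 genes of endothelium, -0.06 for 11 of stellate cells and fibroblasts, -0.12 for 7 of cholangiocytes, and -0.58 for 11 of lymphocytes, with no gene of these 4 lists at an unadjusted p under 0.05. With 1 mouse left out the medians of the first 3 lists took both signs, reaching 0.04 and 0.07 without AIN93G mouse 1 for endothelium and stellate cells and 0.13 without HFD mouse 2 for cholangiocytes. The lymphocyte markers had few counts, and their median was -0.02 without AIN93G mouse 1. At that level 1 hepatocyte, 1 erythroid, and 2 adipocyte markers were higher.

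The lists of stress and growth had no call by edgeR. Of 28 genes of ER chaperones and the stress response, 24 were below 0, with 6 lower and 2 higher at an unadjusted p under 0.05 (median -0.30). The number lower was 17 without AIN93G mouse 1 (median -0.44), 10 without HFD mouse 3, 3 without HFD mouse 1, 2 without AIN93G mouse 2 or HFD mouse 2, and 1 without AIN93G mouse 3 (median -0.16). Over all genes, 453 were lower without AIN93G mouse 1, 693 without HFD mouse 3, and 289 without AIN93G mouse 3, beside 449 with all 6 mice. AIN93G mouse 1 was below the AIN93G mean for all 28 genes. Atf4, the translation-controlled regulator of amino acid stress, had 106, 99, and 126 CPM on AIN93G and 80.8, 80.3, and 85.9 CPM on the HFD (log2 fold change -0.42, SE 0.12, adjusted p = 0.461). Its target Chac1, which degrades glutathione, had a log2 fold change of 0.76 (SE 0.20). Of 28 antioxidant and glutathione genes, 2 were higher at an unadjusted p under 0.05 (median 0.01), beside 4.26% of all genes. In this list 1 was higher without AIN93G mouse 2, AIN93G mouse 3, or HFD mouse 2. Its medians were -0.03 (without AIN93G mouse 2) to 0.11 (without AIN93G mouse 1). Gpx1, the main cytosolic glutathione peroxidase, was 1 of the 2 higher genes and was called by DESeq2. It had 1447, 1226, and 1379 CPM on AIN93G and 1766, 1922, and 1755 CPM on the HFD. The 26 cell cycle genes had a median of 0.21, with 1 higher at that level. That number was 5 without HFD mouse 2 (median 0.38) or AIN93G mouse 2 (median 0.34), 2 without AIN93G mouse 1, and 0 without HFD mouse 3 (median 0.06).

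**Figure D5:**
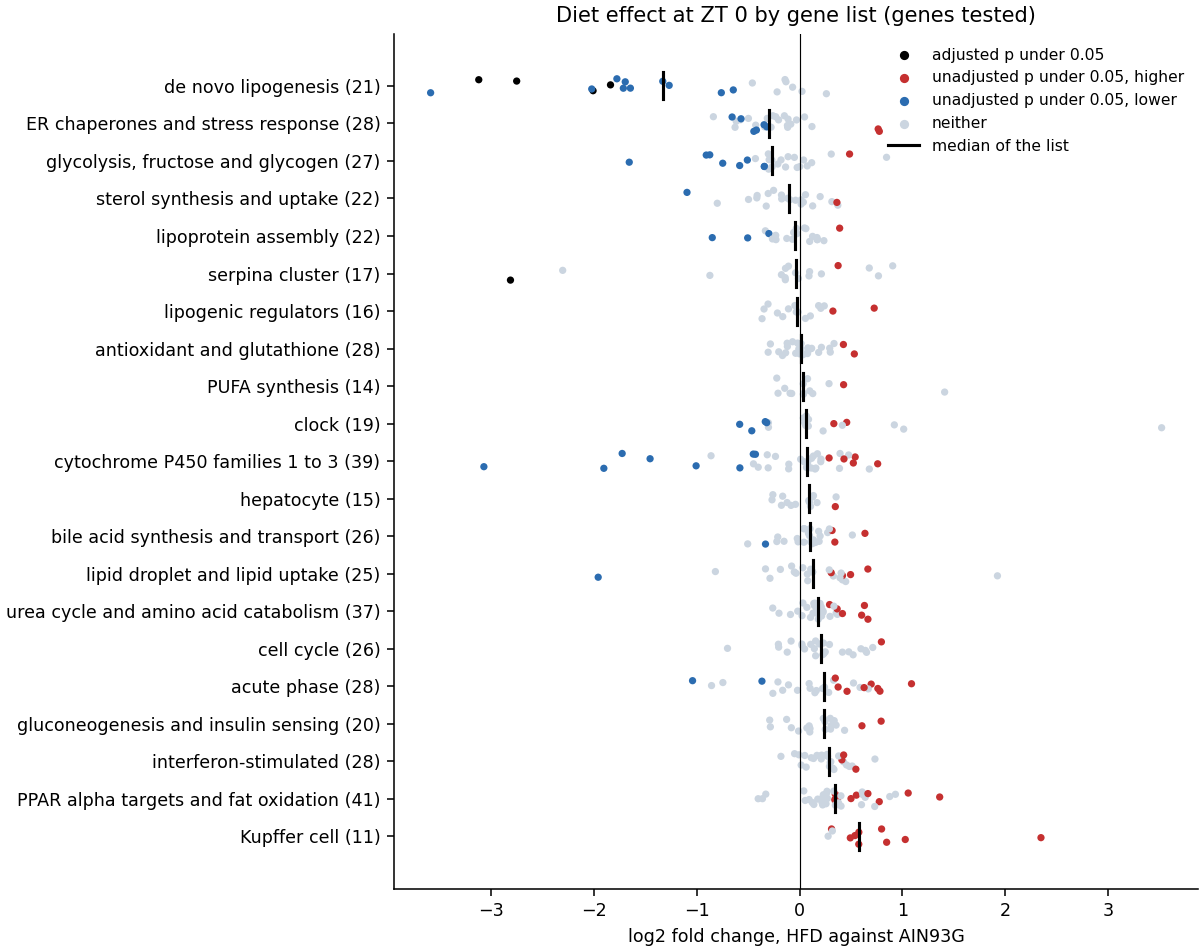
Log2 fold change of the HFD against AIN93G at ZT 0 for the genes of 19 pathway lists and 2 marker lists, 1 point per gene, ordered by the median of the list (black line), with the number of genes tested in parentheses. Black points passed the threshold, colored points had an unadjusted p under 0.05, and the de novo lipogenesis list has the lowest median (-1.33) and the Kupffer cell list the highest (0.58).

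Core circadian genes, which the study also assayed by PCR, held no gene past the threshold at ZT 0. Clock and Arntl, the activators of the clock, had log2 fold changes of 0.09 (SE 0.12) and 0.08 (SE 0.11). The repressor Cry1 had 46.7, 44.1, and 46.2 CPM on AIN93G and 35.2, 33.6, and 40.9 CPM on the HFD, without overlap (log2 fold change -0.32, SE 0.11, adjusted p = 0.554). Per1 varied widely among mice, with 16, 19.8, and 3.04 CPM on AIN93G and 37.1, 19.1, and 22.2 CPM on the HFD, and AIN93G mouse 3 was far below the others (log2 fold change 1.01, SE 0.51, adjusted p = 0.681). Nr1d1, which encodes REV-ERBα, had 2.4, 2.34, and 6.65 CPM on AIN93G and 10.001, 8.61, and 3.02 CPM on the HFD, again with overlap (log2 fold change 0.92, SE 0.50, adjusted p = 0.69). Per2 had a log2 fold change of -0.30 (SE 0.22). Of 19 clock genes (median 0.06), 2 were higher and 4 lower at an unadjusted p under 0.05, beside 4.26% and 3.35% of all genes. The number lower was 1 without HFD mouse 2 and 2 without AIN93G mouse 1 (median 0.16), and the number higher was 1 without HFD mouse 1. Nr1d2, Cry2, and Bhlhe40 were without overlap between the diets, with log2 fold changes of 0.46 (SE 0.14), 0.33 (SE 0.11), and -0.33 (SE 0.12).

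Of the genes that missed the threshold with edgeR, 10 in each direction were taken by lowest p among those whose diets did not overlap. Their adjusted p by edgeR was up to 0.177, while DESeq2 called all of them except Pnpla3. Gpat3, which starts glycerolipid synthesis at the endoplasmic reticulum, had 2.58, 3.51, and 2.61 CPM on AIN93G and 6.88, 13.2, and 10.8 CPM on the HFD (log2 fold change 1.83, SE 0.28, adjusted p = 0.0672). The cationic amino acid transporter Slc7a2 had 312, 282, and 201 CPM on AIN93G and 664, 494, and 457 CPM on the HFD (log2 fold change 1.02, SE 0.20, adjusted p = 0.177). The mitochondrial phosphatase Ppm1k, which activates breakdown of branched-chain amino acids, had 72.8, 84.8, and 78.9 CPM on AIN93G and 115, 138, and 176 CPM on the HFD (log2 fold change 0.86, SE 0.16, adjusted p = 0.158). Saa4 and Saa1 were also in this group. Others with positive values were the mitochondrial sodium-calcium exchanger Slc8b1 (0.88), the magnesium channel Trpm6 (2.53), the semaphorin Sema5b (2.79), the lysyl oxidase Loxl4 (0.67), and the predicted gene Gm8941 (0.61). Trpm6 and Sema5b were low, with 18, 11, and 6 counts and 7, 5, and 9 counts on AIN93G. On the HFD they had 49, 53, and 109 counts and 28, 67, and 57 counts. On the negative side, beside Pklr, Pnpla3, and Cyp3a41a, were the stress protein Nupr1 (-1.47), the collagen Col27a1 (-0.77), the GTPase Gimap8 (-1.04), Lrrc28 (-0.82), and 4930452B06Rik (-1.97). The prostaglandin E synthase Ptges had 20, 27, and 13 counts on AIN93G and 1, 2, and 3 on the HFD. The microRNA gene Mir6392 lies within Pnpla3 on the same strand. It had 42, 17, and 16 counts on AIN93G and 1, 0, and 0 on the HFD, and its reads cannot be told apart from those of Pnpla3.

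Other mice sampled at ZT 4 and ZT 8 showed how far the changes at ZT 0 held through the light phase. All 14 genes had the same direction at both times. The diets did not overlap in that direction for 8 of the 14 at ZT 4 and for 7 at ZT 8. Over all genes, the share without overlap in either direction was 7.50% at ZT 4 and 12.7% at ZT 8. Log2 fold changes of Scd1 were -1.77 (SE 0.41) at ZT 4 and -1.38 (SE 0.41) at ZT 8, and those of Elovl6 were -1.23 (SE 0.14) and -1.15 (SE 0.44). Abcc3 was nearly the same at the 3 times, with 0.78 (SE 0.19) at ZT 4 and 0.91 (SE 0.15) at ZT 8. Serpina12 had -0.12 (SE 0.50) at ZT 4 and -2.11 (SE 0.46) at ZT 8, so the values at ZT 4 were close to 0. Sult3a1 had the same course, with -0.18 (SE 0.56) and -1.10 (SE 0.29). The median of the lipogenesis list was -0.35 at ZT 4 and -0.61 at ZT 8, that of the fat oxidation list 0.16 and 0.07, and that of the Kupffer cell markers 0.05 and 0.15.

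The effect at ZT 0 was tested against the mean of those at ZT 4 and ZT 8 in 1 fit of 18 libraries. No gene passed the threshold (0%) with edgeR or with DESeq2, while 303 and 308 genes had an unadjusted p under 0.05. That number included 8 of the 14 genes, whose choice rested on the values at ZT 0. A difference of the effect at ZT 0 from that later in the light phase was therefore not shown for any single gene.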

How the data were processed

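Whole liver of 42 mice was sequenced as poly(A) RNA, and the 6 mice of ZT 0 were compared by diet, with 12 mice of ZT 4 and ZT 8 for reference. The authors had the reads trimmed, aligned, and counted per gene by a company. The submitters' processing notes name fastp, STAR, HTSeq 0.6.1, and the build mm10, without giving their roles. The deposited values are these raw counts, without normalization, for 54532 genes. The strand setting of the counting is not given in the sources used here. The notes also name DESeq and STAR-Fusion, whose output was not used here. The table gives a gene length in bases, by which CPM was divided for levels per kilobase.

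Genes with a mean of at least 25 counts over the 42 libraries were kept (13394). Counts were scaled by TMM and tested by quasi-likelihood in edgeR 4.0.16 (glmQLFTest, R 4.3.3), with diet as the only term and Benjamini-Hochberg adjustment over all genes tested. The threshold was an adjusted p of 0.05. The common biological coefficient of variation was 0.177. SE is that of the log2 fold change, taken from the F statistic. Unadjusted p refers to the same test. CPM uses the same TMM factors. For the plot by mouse, 0.5 was added to CPM before taking logs. DESeq2 1.42.0, limma 3.58.1 (voom), other filters, other sets of libraries in the fit, and each mouse left out in turn were alternatives. Scripts were tested on simulated data.

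The labels give separate mice, so p-values measure the spread between these mice. Depth was 15123633 to 17975846 counts per library. Genes named were those past the threshold, the 12 genes the study measured by PCR, up to 6 members per list with an unadjusted p under 0.05 and diets that did not overlap, the 10 next genes in each direction by p without overlap, and markers on which a result turned. The members and lists were chosen with earlier results of these data known. Promoter sequences came from RefSeq on GRCm38.p6, matched by symbol for 10244 of the genes tested.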

Additional observations from a re-analysis of the deposited data

How the results depend on the processing

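The number of genes past the threshold at ZT 0 was 14. It was 106 with DESeq2 (52 higher, 54 lower), 1 with limma-voom, 9 with a mean of 25 counts over the 6 libraries, and 9 with 25 counts in each. Without a filter it was 453, of which 430 were among the 13394 genes of the filtered test. One fit of 18 libraries gave 7, and one fit of all 42 libraries with edgeR gave 0, with 175 genes at an unadjusted p under 0.05. Leaving out 1 mouse gave 1 (without AIN93G mouse 2) to 35 (without HFD mouse 1), and the cause was not tested. All 14 genes kept their direction in the 14 alternatives, and their calls held in 4 (Fbxo31, Sult3a1) to 12 (Serpina12) of them. Over all named genes and alternatives, 1032 values kept direction and side of the threshold, 91 came to pass it, 98 lost it, and 2 changed sign. Those 2 were of Fads1, which was -0.07 without AIN93G mouse 2, -0.12 without HFD mouse 3, and at most 0.24 with 1 mouse left out. The difference of the effect at ZT 0 from that at ZT 4 and ZT 8 had no gene past the threshold in any alternative, with 245 to 593 genes at an unadjusted p under 0.05. Depth limits the low genes, such as Ptges with at most 3 counts in each HFD mouse. No paired analysis was possible because the labels do not number replicates within a diet in a way that links mice across diets.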

Other observations

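Ctcflos and Zbp1, both higher on the HFD, lie 108 kb apart from the start of one to the end of the other on chromosome 2. This neighbourhood was chosen after its values had been seen. Of 7 genes tested within 150 kb on either side, 6 had a log2 fold change above 0, beside 6643 of all 13394 genes. The 6 hold Ctcflos and Zbp1, by which the window was set, and Ctcfl, which overlaps Ctcflos. The count therefore cannot show a rise of the neighbourhood. Between Ctcflos and Zbp1 lies Pck1. The CPM of Ctcfl was 3.22, 3.25, and 1.18 in the AIN93G mice and 6.43, 9.77, and 5.15 in the HFD mice (log2 fold change 1.48, SE 0.39, adjusted p = 0.407 by edgeR and 0.0212 by DESeq2). The diets did not overlap for Ctcfl, Ctcflos, Pck1, and Zbp1. The flanking genes Rae1, Rbm38, and Pmepa1 overlapped between diets, with log2 fold changes of -0.17 (SE 0.14), 0.16 (SE 0.33), and 0.24 (SE 0.34). At ZT 4 and ZT 8, other mice had log2 fold changes of 1.04 and 0.61 for Ctcflos and of 0.24 and 0.37 for Zbp1.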
